A study of Mus musculus with 48 samples.

Results

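Glucocorticoid-responsive genes are the transcripts that rise or fall when corticosterone, the main glucocorticoid of mice, reaches a cell. The 10 genes described here are Fkbp5, Zbtb16, Tsc22d3, Sgk1, Klf9, Dusp1, Mt1 and Mt2, which are known targets of the hormone, together with Nr3c1, which encodes its receptor, and Hsd11b2, whose enzyme inactivates it. They were chosen by name, with earlier results of these data known. Matching these symbols to the Ensembl gene IDs of the deposited count table found all 10 among its 55401 IDs. All 10 also passed the filter on low counts, which left 15646 genes for the tests.

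Polyadenylated RNA was sequenced from whole jejunum, the stretch of small intestine between duodenum and ileum, of mice in constant darkness. The control group carries floxed Bmal1 alleles (bmal1fl/fl) and the knockout group is labelled Bmal1iec-/-, and each was sampled at 6 circadian times (CT, in hours of the animals' own day) from CT1 to CT21, 4 h apart. The labels give no age, no sex and no driver of the deletion. Nor do they tell whether libraries of a group are from separate animals, and p-values therefore reflect only how far these libraries scatter. Every group held 4 libraries, except that knockout CT9 held 3 because the fourth labelled library was not analysed here.

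Circulating corticosterone binds the receptor made from Nr3c1, which is held ready in the cytoplasm by the chaperone Hsp90 and its partners. The loaded receptor moves to the nucleus and binds glucocorticoid response elements beside its target genes. In rodents the blood level of the hormone peaks around the start of the active phase, which is the night in mice, and CT13 lies just after the start of subjective night. Bmal1, listed under the symbol Arntl, codes for a core transcription factor of the circadian clock, so its loss in a tissue removes the local clock while signals from the rest of the body can still reach the cells.

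Sequence before a gene's start is where response elements are often sought, and 7 of the 10 genes had entries in a table of RefSeq start sites (GRCm38.p6), with 14 windows of 250 bases in all. Zbtb16, Nr3c1 and Hsd11b2 had no entry. The windows of Sgk1, Fkbp5, Mt1 and Mt2 that held a searched motif are shown, written 5′ to 3′ on the strand of the gene with the motif in capitals. The Sgk1 window (chr10:21993640-21993889, plus strand, within an intron of the longer GENCODE transcripts) holds the palindromic glucocorticoid response element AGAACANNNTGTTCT at -189 to -175 from the start, and the E-box CACGTG, the hexamer that BMAL1 and its partner CLOCK bind, at -246 to -241. The Fkbp5 window (chr17:28486150-28486399, minus strand, also within an intron of a longer transcript) holds an E-box at -169 to -164. The Mt1 window (chr8:94178839-94179088, plus strand) holds the relaxed response element GNACANNNTGTNC at -94 to -82 and the metal response element core TGCACNC at -23 to -17. The Mt2 window (chr8:94172368-94172617, plus strand) holds TGCACNC on either strand at -223 to -217 and at -50 to -44. It also holds the related core TGCGCNC at -128 to -122. The annotated Mt2 gene overlaps the antisense gene Gm45774.
Sgk1: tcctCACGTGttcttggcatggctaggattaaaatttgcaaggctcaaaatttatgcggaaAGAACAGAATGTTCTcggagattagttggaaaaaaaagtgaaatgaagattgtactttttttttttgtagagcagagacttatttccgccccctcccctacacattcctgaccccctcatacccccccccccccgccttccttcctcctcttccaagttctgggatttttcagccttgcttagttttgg
Fkbp5: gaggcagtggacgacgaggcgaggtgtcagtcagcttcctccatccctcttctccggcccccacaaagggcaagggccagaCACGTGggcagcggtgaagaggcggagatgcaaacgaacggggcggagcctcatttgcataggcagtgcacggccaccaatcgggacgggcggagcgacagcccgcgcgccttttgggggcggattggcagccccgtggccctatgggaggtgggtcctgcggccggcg
Mt1: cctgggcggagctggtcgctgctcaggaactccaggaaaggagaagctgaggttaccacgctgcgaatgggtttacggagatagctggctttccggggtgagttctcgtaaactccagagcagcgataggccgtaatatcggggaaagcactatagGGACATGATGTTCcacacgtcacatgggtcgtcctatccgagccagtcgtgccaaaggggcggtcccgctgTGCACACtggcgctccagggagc
Mt2: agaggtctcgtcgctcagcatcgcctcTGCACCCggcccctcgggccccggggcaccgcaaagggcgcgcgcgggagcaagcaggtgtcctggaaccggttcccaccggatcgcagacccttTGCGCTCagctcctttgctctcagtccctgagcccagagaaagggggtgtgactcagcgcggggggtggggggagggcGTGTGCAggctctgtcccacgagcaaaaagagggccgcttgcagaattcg

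Among 32851 such windows of the genome, searched on both strands, the palindromic element stood in 3 (0.00913%) and the relaxed element, which the palindrome contains, in 127 (0.387%). The E-box stood in 1978 windows (6.02%), TGCACNC in 3417 (10.4%) and TGCGCNC in 4109 (12.5%). Sgk1, which encodes a kinase that holds sodium channels at the cell surface, was thus the only one of the 7 genes with the palindrome. It also had more windows than any other of the 7, and its windows not shown held none of these motifs. Dusp1 (chr17:26508473-26508722, minus strand) held an E-box and the cAMP response element TGACGTCA, which stood in 508 windows (1.55%). The windows of Tsc22d3 and Klf9 held none of these motifs. A match describes the letters of a window and does not show that a factor binds there. The motifs were chosen after the windows had been seen, so the shares do not measure how unusual these matches are.

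The targeted gene was read first. Arntl ranged from 10.4 ± 1.34 CPM (counts per M counts of the tested genes, mean ± SD, n = 4) at CT9 to 78.4 ± 11.3 (n = 4) at CT21 in control, with a 24-h amplitude of 1.62 on the log2 scale and a peak at CT22.4. In knockout its group means lay between 27.3 and 31.4 CPM and no 24-h rhythm was called (amplitude 0.04, adjusted p = 0.894), and the rhythms of the genotypes differed (adjusted p = 2.3e-16). These counts cover all exons of Arntl, so transcripts from the deleted allele and from cells outside the deletion are both counted. Library totals ran from 4.34 to 6.91 M counts, and where a gene had 0 counts, up to 3 counts (0.434 to 0.692 per M of the total) remain possible from counting error alone. In 5 libraries the genes departed widely from their usual level, with an interquartile range of relative log expression of 0.60 to 1.12 against at most 0.476 elsewhere. They are replicates 1, 2 and 3 of knockout CT1, replicate 4 of knockout CT21 and replicate 1 of control CT21. Several results of the 10 genes that rest on them, though not all, are given with and without them. Results of markers and of the genes in other lists are given with all libraries only. Of 8 T cell and intraepithelial lymphocyte markers, 7 passed the filter (Cd2 did not). All 7 were lower in knockout in the mean over times, against 11% of all genes. Their summed level ranged over 100 to 382 CPM among the control libraries, while knockout ranged over 52.9 to 121 CPM. All 6 markers of B and plasma cells were also lower in the mean over times. Their sums overlapped, with 512 to 1070 CPM among control and 260 to 1133 CPM among knockout libraries. At CT9 5 of the 6 were called, against 3.6% of all genes, and at each other time 0 were called. In whole tissue, fewer cells of a type and less RNA per cell cannot be told apart, and the part of these markers in the results below was not tested.

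Several of the classical induced transcripts had a 24-h rhythm in both genotypes, and the steepest of them peaked in the same group. Fkbp5, Zbtb16, Tsc22d3, Sgk1 and Klf9 were rhythmic in control and in knockout (edgeR's quasi-likelihood test, Benjamini-Hochberg adjusted over all genes tested, threshold 0.05). With Mt2 this made 6 of 10 genes in control, against 20.5% of all genes tested, and 5 of 10 in knockout, against 14.6%. The median amplitude of the 10 was 0.81 in control and 0.47 in knockout on the log2 scale, and the median over all genes was 0.17 and 0.18. Because the 10 were chosen with earlier results of these data known, these shares describe the list and are no independent test. The genotypes' rhythms differed for 0 of the 10, against 1.5% of all genes. At an unadjusted p under 0.05 that count was 2, Tsc22d3 and Sgk1, and limma-voom also called 0.

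Fkbp5 (chr17:28399094-28517527, minus strand) encodes FKBP51, a co-chaperone that lowers the receptor's affinity for the hormone and so forms a negative feedback loop. At CT13 the 4 control libraries held 266.6, 252.5, 166.5 and 324.7 CPM, and the 4 knockout libraries held 147.3, 185.4, 83.2 and 203.5 CPM. At CT5 control held 13.2, 10.1, 11.1 and 9.98 CPM and knockout 7.49, 10.2, 17.4 and 12.2 CPM. In each genotype every CT13 library lay above every library of the other times, whose highest value was 79.2 CPM in control (CT17) and 45.9 CPM in knockout (CT17). The mean at CT13 was 22.8 times the lowest group mean (CT5) in control and 13.1 times in knockout. The fitted amplitude was 2.07 ± 0.27 (SE) in control, peaking at CT14.1 (adjusted p = 2.2e-07), and 1.67 ± 0.28 in knockout, peaking at CT14.0 (adjusted p = 1.5e-04). At CT13 the knockout mean of 154.9 ± 53.2 CPM (SD, n = 4) was 0.613 of the control mean of 252.6 ± 65.3 CPM (n = 4). The libraries of the genotypes overlapped there, and the difference did not pass the test (log2 -0.71, SE 0.34, adjusted p = 0.330).

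In the order of group means, Fkbp5 went from CT13 to CT17, CT21, CT9, CT1 and CT5 in both genotypes. Below the CT13 peak, CT17, CT21 and CT9 overlapped their neighbours in that order, while in control CT9 stood clear of CT1. At CT9 control held 23.1, 26.0, 16.1 and 57.7 CPM and knockout 10.6, 16.6 and 24.4 CPM, and the difference did not pass the test (log2 -0.84, SE 0.41, adjusted p = 0.409). At CT1, when both genotypes lay between 11.4 and 15.2 CPM, the fitted difference was 0.08 with an SE of 0.42. The table's counts may include antisense transcripts that overlap Fkbp5, since the strand setting of the counting is not given in the sources used here.

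Zbtb16 (chr9:48654297-48836222, minus strand) encodes PLZF, a zinc finger repressor also used by innate-like lymphocytes. Its CT13 libraries held 28.8, 21.3, 8.36 and 27.2 CPM in control and 11.8, 19.1, 7.40 and 15.9 CPM in knockout. Outside CT13 the highest library reached 6.63 CPM in control, and 1 knockout library held no count at all, so most values off the peak rest on few reads. All CT13 libraries stood above all others of their genotype. The amplitude was 2.39 ± 0.41 in control (peak CT12.7, adjusted p = 2.9e-06) and 2.02 ± 0.42 in knockout (peak CT12.6, adjusted p = 7.2e-04). The rhythm difference had an adjusted p of 0.969. The lowest control library at CT13, replicate 3, was also the lowest of that group for Fkbp5 and Tsc22d3, and replicate 3 of knockout CT13 was the lowest of its group for Fkbp5 and Zbtb16.

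Tsc22d3 (chrX:140539528-140600659, minus strand) encodes GILZ, an anti-inflammatory leucine zipper protein induced by glucocorticoids. Its highest group mean was at CT13 in both genotypes. That mean was 201.6 ± 39.4 CPM (SD, n = 4) in control and 202.1 ± 51.9 CPM (n = 4) in knockout. The CT13 and CT17 libraries overlapped in both, and the fitted peak lay at CT15.8 in control and CT15.2 in knockout. The genotypes differed at CT1, which was the lowest group in control. At CT1 the control libraries held 43.8, 46.7, 42.1 and 52.7 CPM and the knockout libraries 84.9, 85.9, 103.1 and 93.1 CPM. The groups did not overlap, the knockout mean was 1.98 times the control mean, and the difference passed the test (log2 0.99, SE 0.17, adjusted p = 3.0e-04). At CT9 control held 53.7, 74.7, 57.8 and 70.2 CPM and knockout 104.0, 85.6 and 79.1 CPM. Those groups did not overlap either, but the difference had an adjusted p of 0.158 (log2 0.48, SE 0.18).

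The genotype difference in Tsc22d3 depended on the time of day, by the test of that dependence itself (adjusted p = 0.0070). It was the only one of the 10 genes so called, against 1.18% of all genes. The fitted difference ran from 0.99 at CT1 through 0.37 at CT5, 0.48 at CT9 and 0.00 at CT13 to -0.13 at CT17 and -0.27 at CT21. In knockout the lowest group was CT5 and in control it was CT1. The range from trough to peak was 4.35-fold in control and 3.08-fold in knockout, and the fitted amplitude was 1.10 ± 0.10 against 0.64 ± 0.10 (adjusted p of the rhythm difference 0.218). Without the 5 libraries that stand apart the fitted amplitude was 1.08 in control and 0.75 in knockout. Of the 4 knockout libraries at CT1, 3 stand apart. The remaining one held 93.1 CPM, above all control CT1 libraries, and without the 5 libraries the CT1 difference was 0.97 with an adjusted p of 0.118, while the dependence on time had an adjusted p of 0.111. The mean over times kept its call (log2 0.23, adjusted p = 0.0439). Cell type markers also moved at CT1. There 5 of 7 fibroblast and endothelial markers were lower in knockout (median log2 difference -0.51), with a summed level of 675.8 to 818.4 CPM among control and 398.4 to 621.6 CPM among knockout libraries. The 7 tested T cell markers were all lower there (median -1.31). Of 8 enterocyte markers 3 were higher (median 0.41), with sums of 23801 to 27514 CPM and 30207 to 40220 CPM. Of all genes, 20.7% were called at CT1 in either direction. The marker calls used all libraries and were not recomputed without those that stand apart. The part of these markers in the CT1 results of Tsc22d3, Sgk1 and Klf9 was not tested.

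Sgk1 (chr10:21882184-21999903, plus strand) encodes the serum- and glucocorticoid-regulated kinase, which is also induced by aldosterone. Its CT13 libraries held 492.0, 505.6, 633.2 and 765.0 CPM in control and 654.6, 783.9, 642.3 and 914.1 CPM in knockout, above every other library of the same genotype. The CT1 group was the lowest in both, with 52.6, 57.7, 43.1 and 70.5 CPM in control and 152.8, 50.6, 85.6 and 190.3 CPM in knockout. Control was the tighter of these groups, and knockout was spread over a wider range that overlapped it. The amplitude was 1.59 ± 0.19 in control (peak CT14.9, adjusted p = 2.0e-07) and 1.18 ± 0.19 in knockout (peak CT13.2, adjusted p = 2.1e-04). The knockout to control ratio of means was 2.14 at CT1 and 2.06 at CT9, and 0.71 at CT17, where the groups did not overlap. None of these differences passed the test (adjusted p 0.0695, 0.296 and 0.760), nor did the mean over times (log2 0.43, SE 0.18, adjusted p = 0.0711). The mean over times passed it in DESeq2's Wald test (0.0479) and when any 1 of 5 libraries was left out, which were control CT5 replicate 3, control CT9 replicate 2, knockout CT1 replicate 2, knockout CT5 replicate 4 and knockout CT9 replicate 3 (adjusted p from 0.0391 to 0.0432). The CT1 difference passed it in DESeq2's test (0.0417), without knockout CT1 replicate 2 (0.0332) and without knockout CT5 replicate 3 (0.0496). The CT17 difference passed it with only the 2 groups compared (log2 -0.49, adjusted p = 0.0296). Without the 5 libraries that stand apart the CT1 difference was 1.73 (adjusted p = 0.238), with 1 knockout library left at that time, and the mean over times was 0.52 (adjusted p = 0.0553). The library with the highest Fkbp5, Zbtb16 and Tsc22d3 of control CT17, replicate 1, had the lowest Sgk1 of that group (281.9 CPM).

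Klf9 (chr19:23141226-23168134, plus strand) encodes a Krüppel-like transcription factor that is a direct target of the receptor and has been described as an output of the clock. It had the shallowest rhythm of the 5, with an amplitude of 0.34 ± 0.08 in control (peak CT10.1, adjusted p = 0.0029) and 0.36 ± 0.08 in knockout (peak CT10.6, adjusted p = 0.0080). It was the one gene of the 10 that fell in knockout in the mean over times (log2 -0.34, SE 0.08, adjusted p = 7.6e-04). Averaged over the 6 times it stood at 39.5 CPM in control and 31.4 CPM in knockout. At CT9 control held 44.5, 56.2, 45.4 and 57.6 CPM and knockout 30.8, 35.9 and 33.1 CPM. At CT1 control held 34.2, 36.8, 30.8 and 35.3 CPM and knockout 21.8, 30.4, 12.3 and 24.0 CPM. The genotypes were separate at CT1, CT9 and CT17 and overlapped at CT5, CT13 and CT21.

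The CT1 difference in Klf9 passed the test (log2 -0.64, SE 0.19, adjusted p = 0.0155) and the CT9 difference of similar size did not (log2 -0.61, SE 0.20, adjusted p = 0.0729). CT9 passed in DESeq2's Wald test (adjusted p = 0.0412), with only the 2 groups compared (0.0154), and without knockout CT1 replicate 3 (0.0420) or knockout CT21 replicate 4 (0.0148). The lowest Klf9 levels came from libraries that stand apart, 12.3 CPM in knockout CT1 replicate 3, 12.4 CPM in knockout CT21 replicate 4 and 21.6 CPM in control CT21 replicate 1. Without replicate 1 or replicate 3 of knockout CT1 the CT1 call was lost (adjusted p 0.0507 and 0.0988), as it was with only the 2 groups compared (log2 -0.67, adjusted p = 0.0788). Without all 5 libraries the mean over times kept its call (log2 -0.31, adjusted p = 6.5e-06), the CT1 difference was -0.55 (adjusted p = 0.166), CT9 passed (-0.61, adjusted p = 2.0e-04) and CT17 passed (-0.36, adjusted p = 0.0358). The knockout rhythm then had an amplitude of 0.20 and an adjusted p of 0.0548.

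**Figure D1:**
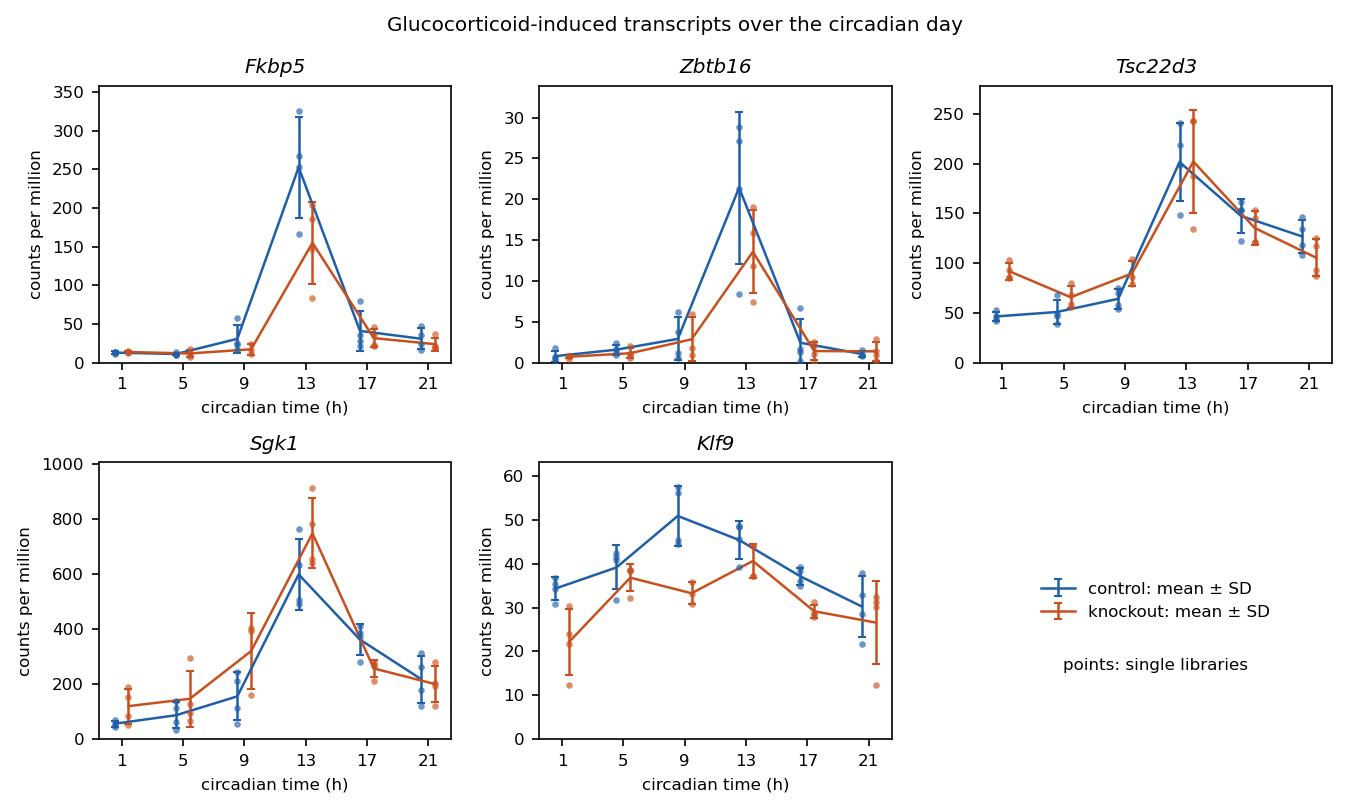
CPM of Fkbp5, Zbtb16, Tsc22d3, Sgk1 and Klf9 (y axes) against circadian time in hours (x axes), with group means and SD as lines and bars, single libraries as points, control in blue and knockout in orange. Fkbp5, Zbtb16 and Sgk1 rise at CT13 above all other times in both genotypes, Tsc22d3 differs between genotypes at CT1, and Klf9 lies lower in knockout.

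Dusp1 (chr17:26505590-26562128, minus strand), a phosphatase that switches off MAP kinases and an immediate early gene as well as a glucocorticoid target, had no called rhythm. Its group means lay between 7.59 CPM (CT9) and 13.4 CPM (CT17) in control and between 8.29 CPM (CT1) and 13.6 CPM (CT17) in knockout. The CT17 libraries held 8.94, 19.4, 13.4 and 12 CPM in control and 17.4, 8.78, 10.3 and 18.1 CPM in knockout, so libraries of one group differed about as much as the times did. The amplitude was 0.25 ± 0.11 in control (adjusted p = 0.233) and 0.33 ± 0.11 in knockout (adjusted p = 0.0810). The annotated span overlaps Ergic1 on the other strand, which adds uncertainty where strand was not used in counting.

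Nr3c1 (chr18:39410545-39519421, minus strand), the glucocorticoid receptor, stayed within a narrow range. Its group means ran from 145.2 ± 15.5 CPM (SD, n = 4) at CT13 to 193.1 ± 19.3 CPM (n = 4) at CT1 in control, and from 155.6 ± 60.9 CPM (n = 4) at CT21 to 194.0 ± 31.2 CPM (n = 4) at CT5 in knockout. The genotypes overlapped at all 6 times, and the difference in the mean over times was -0.05 with an SE of 0.09 (adjusted p = 0.736). At CT13 the control libraries held 143.8, 124.5, 160.9 and 151.7 CPM, below each of the CT1, CT5 and CT9 libraries of control, which began at 171.5 CPM. Its 3 lowest levels came from libraries that stand apart, 77.6, 92.5 and 72.1 CPM. No rhythm was called with all libraries (adjusted p 0.303 in control and 0.331 in knockout), and without the 5 libraries a shallow one was called in both, with amplitudes of 0.17 (adjusted p = 0.0110) and 0.19 (adjusted p = 0.0274).

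Hsd11b2 (chr8:105518755-105523988, plus strand) encodes the dehydrogenase that turns corticosterone into an inactive form and so shields the mineralocorticoid receptor in epithelia. It was a low transcript, between 3.22 and 9.21 CPM in control libraries and between 2.21 and 6.79 CPM in knockout libraries. At CT5 control held 3.96, 3.95, 4.24 and 4.17 CPM and knockout 2.67, 3.81, 2.83 and 2.29 CPM, without overlap. The mean over times differed by -0.28 (SE 0.11) and did not pass the test (adjusted p = 0.0624). The highest value of each genotype, 9.21 CPM and 6.79 CPM, came from a CT21 library that stands apart, and without the 5 libraries the difference was -0.34 with an adjusted p of 0.0176. It passed the test in limma-voom (adjusted p = 0.0446) and when any 1 of 9 libraries was left out (adjusted p from 0.0093 to 0.0472). In control these were CT9 replicate 2, CT13 replicate 3, CT17 replicate 4 and CT21 replicate 2, and in knockout CT1 replicate 3, CT5 replicate 2, CT13 replicate 4, CT17 replicate 4 and CT21 replicate 4.

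Mt1 (chr8:94179082-94180327, plus strand) and Mt2 (chr8:94172664-94173568, plus strand) are neighbouring genes for metallothioneins, small cysteine-rich proteins that bind zinc and copper and respond to both metals and glucocorticoids. Mt1 had more counts than Mt2 in all 47 libraries, 11963 against 635 in total, and both were low at CT17. There the Mt1 libraries held 23.2, 30.0, 20.9 and 17.0 CPM in control and 18.1, 19.3, 28.1 and 47.2 CPM in knockout. At CT13 they held 37.0, 55.9, 49.1 and 57.4 CPM in control and 68.9, 80.0, 58.3 and 91.2 CPM in knockout. The CT13 groups did not overlap, with a ratio of means of 1.5, and the difference did not pass the test (log2 0.58, SE 0.42, adjusted p = 0.598).

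Mt1 had no called rhythm with all libraries (amplitude 0.52 in control, adjusted p = 0.116, and 0.33 in knockout, adjusted p = 0.427). At CT21 the libraries held 64.9, 24.9, 19.0 and 13.2 CPM in control and 19.7, 36.9, 22.4 and 126.7 CPM in knockout, and the highest of each group is the library that stands apart. Without the 5 libraries the amplitude was 0.69 in control (adjusted p = 0.0018) and 0.78 in knockout (adjusted p = 0.0041). The Mt1 difference in the mean over times was 0.42 (SE 0.18, adjusted p = 0.0819) with all libraries, 0.29 (adjusted p = 0.157) without the 5, and 0.53 (adjusted p = 0.0140) without control CT21 replicate 1 alone. It also passed without knockout CT21 replicate 1 (0.0396) or replicate 3 (0.0464). The Mt1 rhythm in control was called without control CT21 replicate 1 (0.0223) or knockout CT21 replicate 4 (0.0420), and that in knockout without knockout CT21 replicate 4 (0.0413).

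Mt2 was rhythmic in control, with an amplitude of 1.25 ± 0.39 and a peak at CT6.3 (adjusted p = 0.0341), and no rhythm was called in knockout (0.59 ± 0.34, adjusted p = 0.373). The difference between these rhythms did not pass the test (adjusted p = 0.827). The control CT5 libraries held 3.02, 8.43, 2.21 and 2.90 CPM and the control CT17 libraries 0.497, 1.02, 0.628 and 0 CPM. Leaving out control CT5 replicate 2, the high one, gave an adjusted p of 0.126. The call also ended without control CT9 replicate 2, control CT17 replicate 1 or 4, or control CT21 replicate 2, 3 or 4 (adjusted p from 0.0528 to 0.0608), so 7 of the 47 libraries each ended it, as did testing with no filter (0.0776) and adding 12-h terms (0.122). Without the 5 libraries that stand apart the rhythm was called in both genotypes (1.49, adjusted p = 0.0037, and 1.24, adjusted p = 0.0399), and without knockout CT21 replicate 4 alone it was called in knockout (1.18, adjusted p = 0.0353). In the test over times with no assumed shape, Mt2 passed in knockout (adjusted p = 0.0373) and not in control (0.0852). The knockout call ended without any 1 of 8 libraries, which were CT1 replicates 1 and 3, CT13 replicates 2 and 4 and all 4 of CT17 (adjusted p up to 0.106), and with no filter (0.115) or in limma-voom (0.0605), and a control call appeared without control CT21 replicate 1 (0.0247) or knockout CT21 replicate 4 (0.0396). Some reads of so similar a pair may have been dropped or shared by the counting.

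**Figure D2:**
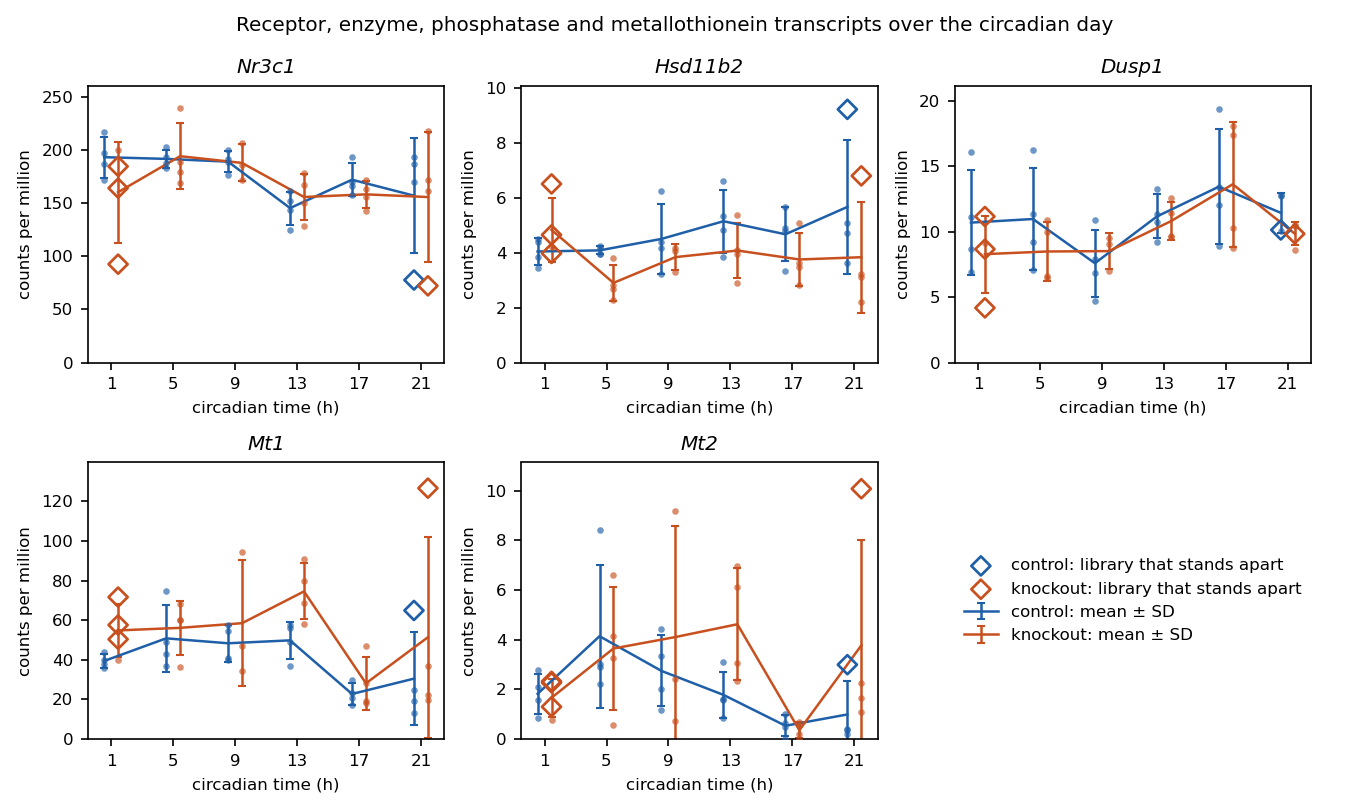
CPM of Nr3c1, Hsd11b2, Dusp1, Mt1 and Mt2 (y axes) against circadian time in hours (x axes), with group means and SD as lines and bars, single libraries as points and the 5 libraries that stand apart as open diamonds, control in blue and knockout in orange. The diamonds at CT21 are the lowest Nr3c1 and the highest Mt1, Mt2 and Hsd11b2 levels of their groups.

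Set side by side, the mean over times differed between genotypes for 2 of the 10 genes, 1 higher (Tsc22d3, log2 0.24, SE 0.07, adjusted p = 0.0078) and 1 lower (Klf9), against 23.3% of all genes (12.2% higher and 11% lower). At CT1 the count was also 2, the same pair, against 20.7%. At CT5, CT9, CT13, CT17 and CT21 edgeR called 0 of the 10, where it called 0.837%, 3.6%, 3.39%, 2.09% and 1.43% of all genes. At an unadjusted p under 0.05 those counts were 1 (Tsc22d3), 4 (Fkbp5, Tsc22d3, Sgk1 and Klf9), 1 (Fkbp5), 0 and 2 (Mt2 and Hsd11b2). DESeq2's Wald test called Klf9 at CT9 and 0 at the other times, and limma-voom called 0 at all 5 times. In the tests over times with no assumed shape, 5 of the 10 passed in control (14.8% of all genes) and 6 in knockout (12%). Groups without overlap were found for 2 genes at CT1 and CT17, for 2 at CT9, for 1 each at CT5 and CT13 and for 0 at CT21, where 16.7%, 10.9%, 12.3%, 7.75%, 13.7% and 4.32% of all genes were so separated.

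**Figure D3:**
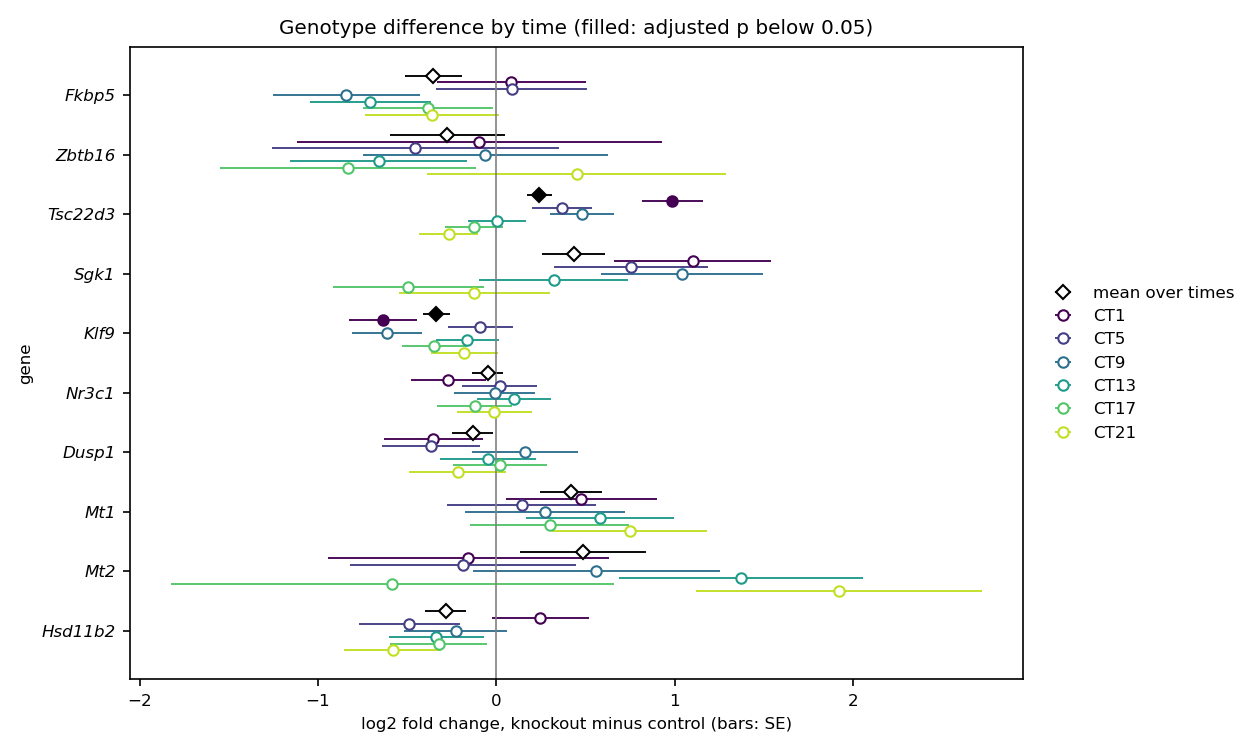
Fitted log2 difference, knockout minus control (x axis), for each of the 10 genes (y axis), with SE bars, circles for the 6 circadian times and diamonds for the mean over times. Filled symbols passed the test, which are Tsc22d3 and Klf9 at CT1 and in the mean over times.

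**Figure D4:**
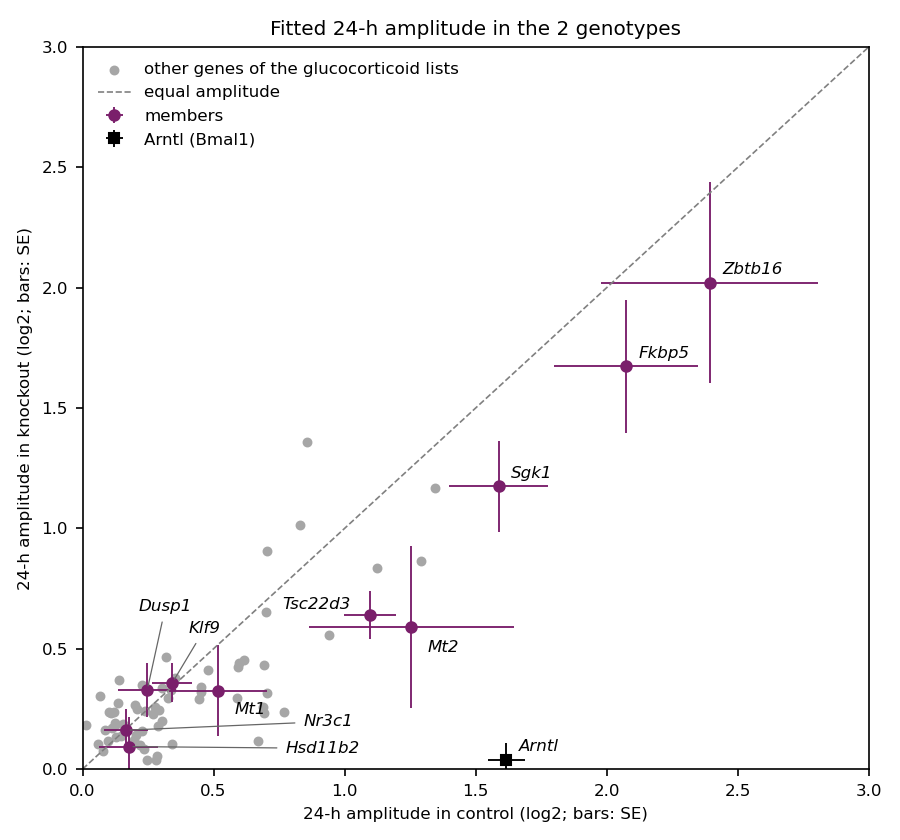
Fitted 24-h amplitude (log2) in control (x axis) and knockout (y axis) with SE bars for the 10 genes and Arntl, and without bars for the other tested genes of the lists. Zbtb16 and Fkbp5 lie highest on both axes, while Arntl lies at 1.62 in control and 0.04 in knockout.

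Per kb of exon, the highest of the 10 in control was Sgk1 with 50.2 CPM per kb (mean over the 6 times), then Mt1 with 32.4, Tsc22d3 with 24.5 and Nr3c1 with 22.7. Klf9 had 8.21, Fkbp5 6.67, Mt2 3.40, Dusp1 3.29, Hsd11b2 2.54 and Zbtb16 0.952 CPM per kb. In knockout the level per kb was 60.9 for Sgk1 and 43.3 for Mt1, and 26.5 for Tsc22d3.

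By shape over the 12 group means, the gene most like Fkbp5 was Ahsa2 (Pearson's r = 0.976), and Zbtb16 was its closest fellow member (r = 0.904, rank 48 among all genes). Myrfl was most like Zbtb16 (0.944), Fam161b most like Tsc22d3 (0.961), Fos most like Sgk1 (0.965) and Trak2 most like Klf9 (0.968). Lgr4 came first for Nr3c1 (0.957), Kif27 for Dusp1 (0.938), Zfp617 for Mt1 (0.906), Atcayos for Mt2 (0.888) and Bex3 for Hsd11b2 (0.932). Mt1 and Mt2 ranked second for each other (0.886). These correlations describe 12 means from shared libraries and scaling.

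Of 9 genes for the mineralocorticoid receptor, chaperones and cofactors, all tested, 6 were rhythmic in control (20.5% of all genes) and 6 in knockout (14.6%), with 0 rhythm differences called (1.5%). Hsp90aa1, the inducible Hsp90, had an amplitude of 0.94 in control (peak CT15.5, adjusted p = 3.4e-07) and 0.56 in knockout (adjusted p = 0.0066), and Stip1, which links Hsp70 to Hsp90, 0.69 (adjusted p = 1.5e-08) and 0.43 (adjusted p = 0.0018). Nr3c2, the mineralocorticoid receptor, was lower in knockout (42.1 CPM in control and 30.1 in knockout, log2 -0.43, SE 0.08, adjusted p = 4.4e-05). Ncor1, a corepressor, was higher (log2 0.35, SE 0.08, adjusted p = 0.0014). These were the 2 genes of the list called in the mean over times, against 23.3% of all genes. The list's median genotype difference was -0.02, against -0.01 over all genes.

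Among 21 further glucocorticoid targets, 20 were tested, 3 rose and 3 fell in knockout in the mean over times, where 12.2% of all genes rose and 11% fell. Of the 20, 9 were rhythmic in control (20.5% of all genes) and 7 in knockout (14.6%), with 0 rhythm differences called (1.5%). Angptl4, an inhibitor of lipoprotein lipase, rose from 38 to 131.9 CPM (log2 1.96, SE 0.23, adjusted p = 2.1e-08), and Errfi1, which restrains the EGF receptor, rose by 0.48 (SE 0.10, adjusted p = 3.8e-04). Per1, a clock gene with its own response element for the receptor, fell by 0.61 (SE 0.12, adjusted p = 1.9e-04) and kept a called rhythm, with an amplitude of 1.34 in control (peak CT12.1) and 1.17 in knockout (peak CT12.3). Pck1, the gluconeogenic enzyme, fell by 0.47 (SE 0.15, adjusted p = 0.0204). The list's median difference was -0.09.

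Of 10 genes of steroid synthesis, conversion and export, 7 were tested, and 0 rose and 3 fell in knockout (12.2% and 11% of all genes). Abcb1a, a P-glycoprotein that pumps corticosteroids out of cells, stood at 342.4 CPM in control and 162.6 CPM in knockout (log2 -0.99, SE 0.11, adjusted p = 1.5e-09), and its rhythm differed between genotypes (adjusted p = 1.1e-04). Its paralog Abcb1b fell by 0.52 (SE 0.19, adjusted p = 0.0406). Hsd11b1, whose enzyme regenerates active corticosterone, fell by 0.34 (SE 0.12, adjusted p = 0.0349). The list's median difference was -0.10.

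Around Sgk1, 9 of 11 genes of epithelial sodium transport were tested, and 3 rose and 3 fell (12.2% and 11% of all genes). Slc9a3, the sodium-proton exchanger NHE3, rose from 252.1 to 426.9 CPM (log2 0.73, SE 0.10, adjusted p = 2.1e-07), and Ndrg1, a substrate of the kinase, rose by 0.46 (SE 0.11, adjusted p = 0.0011). Sgk3, a related kinase, fell by 0.28 (SE 0.09, adjusted p = 0.0222). Scnn1b and Scnn1g, subunits of the epithelial sodium channel, did not pass the filter. The list's median difference was -0.12.

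Beside the metallothioneins, 4 of 7 genes of metal handling were tested, and 3 rose and 0 fell (12.2% and 11% of all genes), with a median difference of 0.36. They were the transporters Slc30a10 (log2 0.53, SE 0.07, adjusted p = 2.6e-07), Slc39a5 (0.38, SE 0.08, adjusted p = 2.7e-04) and Slc39a4 (0.33, SE 0.08, adjusted p = 9.9e-04). Beside Dusp1, 14 immediate early and phosphatase genes were tested, with 1 higher and 2 lower (12.2% and 11% of all genes) and a median of 0.00. Fosb rose by 0.85 (SE 0.21, adjusted p = 0.0019), Dusp2 fell by 0.75 (SE 0.27, adjusted p = 0.0377) and Dusp10 fell by 0.25 (SE 0.09, adjusted p = 0.0453). Atf3 had a rhythm in control (amplitude 0.77, adjusted p = 0.0015).

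Adipocytes also express several of these transcripts, and their markers were read at the CT13 peak. All 5 adipocyte markers passed the filter. Their summed level in the CT13 libraries was 106.6, 554.3, 189.3 and 153.6 CPM in control and 144.5, 141.5, 176.7 and 137.6 CPM in knockout, and over all times it spanned 54.6 to 554.3 CPM among control libraries and 73.8 to 213.6 CPM among knockout libraries. The library at 554.3 CPM held 252.5 CPM of Fkbp5, between the other control CT13 libraries, and the CT13 library at 106.6 CPM held 266.6 CPM. The mean over times differed for 0 of the 5 markers, against 23.3% of all genes. A rhythm was called for 2 of the 5 in control (20.5% of all genes), Lep (amplitude 2.29, adjusted p = 0.0361) and Cidec (0.70, adjusted p = 2.1e-04). The list's median amplitude was 1.31 against 0.17 over all genes. In knockout 0 of the 5 were called (14.6% of all genes, median 0.32 against 0.18). The rhythms of the genotypes differed for 0 of the 5 (1.5% of all genes). At CT1 1 of the 5 was called, Cidec, which was higher in knockout (log2 1.11, SE 0.28, adjusted p = 0.0058), against 20.7% of all genes. These marker calls were not recomputed without the library at 554.3 CPM or without those that stand apart. Of 6 markers of B and plasma cells, 5 were rhythmic in control (median amplitude 1.74, 20.5% of all genes called) and 0 in knockout (14.6%). The test of the difference between the rhythms called 0 of the 6, against 1.5% of all genes. The part of these markers in the rhythms and the CT1 differences of the 10 genes was not tested.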

How the data were processed

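The authors deposited raw counts of reads per gene, 1 column per library, not scaled. Per the labels' protocols, RNA came from a NucleoSpin kit and libraries from the TruSeq Stranded mRNA kit. The submitters' processing notes name mm10 with DESeq2 1.22.0, featureCounts 1.4.6, STAR 2.7.5c, Trimmomatic 0.39, SAMtools 1.3.1 and FastQC 0.11.5, in no stated order. How strand and multi-mapping reads were handled, and the annotation release, were not given in the sources used here. Labels name 48 libraries and 47 had a column. Symbols and coordinates came from GENCODE for mm10 (54349 IDs matched with their version, 792 without it, 260 unmatched). No pair of libraries agreed within counting noise (lowest chi-square per degree of freedom 2.51 over 1081 pairs).

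From the counts, genes were kept by filterByExpr (minimum count 10, minimum total 15) over the 12 groups and scaled by TMM. CPM is per M (mega) counts of the kept genes after scaling. One model gave each group a mean (35 residual degrees of freedom), another an intercept, cosine and sine of 24 h per genotype (41). Both used edgeR 4.0.16 in R 4.3.3 with robust quasi-likelihood F tests, adjusted by Benjamini-Hochberg over 15646 genes. A log2 amplitude runs from the fitted mean to the peak. Groups came from the genotype and time labels, and replicates were numbered in accession order. A library stands apart when its interquartile range of relative log expression is above 0.5. Alternatives were other scalings, no filter, DESeq2 1.42.0, limma-voom (limma 3.58.1), added 12-h terms, only the compared groups, each library left out in turn, and the 5 libraries that stand apart left out together. The tests were tried on simulated data.

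The genes, pathway lists and markers were chosen with earlier results of these data known, and the promoter motifs after the windows had been seen. The 10 genes are always named, and of each list at most 4 genes, those with the greatest difference past the threshold and then the greatest control amplitude. One gene that this rule would name is not reported here.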

Additional observations from a re-analysis of the deposited data

Results flagged for a closer look

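In 110 groups of 4 libraries, 8 held a value far from the other 3 by Dixon's criterion, which chance meets in about 1 of 20 groups. Of the 8, 4 came from libraries that stand apart. Fkbp5 was 36.5 CPM in knockout CT21 replicate 2, where the others lay between 18.9 and 20.8 CPM. Klf9 was 31.7 CPM in control CT5 replicate 1 (others 40.9 to 42.5), 32.1 CPM in knockout CT5 replicate 1 (others 38.3 to 38.5) and 12.4 CPM in knockout CT21 replicate 4 (others 30.2 to 32.5). Mt1 was 126.7 CPM in knockout CT21 replicate 4, with the others between 19.7 and 36.9 CPM. Mt2 was 8.43 CPM in control CT5 replicate 2 (others 2.21 to 3.02), 2.99 CPM in control CT21 replicate 1 (others 0.197 to 0.392) and 10.1 CPM in knockout CT21 replicate 4 (others 1.10 to 2.25).

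The genotype difference in Tsc22d3 varied between times by the test of that variation (edgeR, adjusted p = 0.0070). It remained past the threshold in each fit with 1 library left out, with adjusted p between 0.0023 and 0.0247, and not without the 5 libraries that stand apart (0.111).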

How the results depend on the processing

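Counts of the 10 genes called were recomputed under 8 alternatives and with each of the 47 libraries left out, and 0 values changed sign while called. Counts that moved by more than 1.5 times were as follows. With DESeq2's Wald test CT9 had 1 call, against 0. With only the 2 groups compared, CT1 had 1 against 2, and CT9 and CT17 had 1 each against 0. Without the 5 libraries that stand apart, CT1 had 0, CT9 1, CT17 1, the dependence of the difference on time 0 against 1, and the test over times in control 8 against 5. Smaller moves came with no filter (control rhythm 5 against 6, knockout times 5 against 6), limma-voom (mean over times 3 against 2, control rhythm 7, knockout times 5), 12-h terms (control rhythm 5), DESeq2's test (mean over times 3, CT1 3 against 2) and without the 5 libraries (mean over times 3, control rhythm 8, knockout rhythm 7 against 5, knockout times 7). That leaves 1 library at knockout CT1, assumed to vary like the other groups.

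With 1 library left out, calls ran from 2 to 4 in the mean over times, 1 to 3 at CT1, 0 to 1 at CT9, 5 to 7 for the control rhythm and 5 to 7 for the knockout rhythm, 4 to 6 over control times and 5 to 7 over knockout times. The rhythms of Fkbp5, Zbtb16, Tsc22d3, Sgk1 and Klf9 were called in both genotypes in each of these fits. The control test over times for Klf9 lost its call without control CT9 replicate 2, control CT9 replicate 4 or control CT21 replicate 1 (adjusted p 0.0594, 0.0568 and 0.0629).

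Over all genes, calls at CT1 numbered 3233, and 40 without the 5 libraries, 862 with only those groups and 2097 with no filter. At CT13 they numbered 530, and 1179, 1175 and 349. At CT17 they numbered 327, and 862, 535 and 196. At CT9, CT5 and over control times they numbered 563, 131 and 2312, and 1026, 292 and 4273 without the 5 libraries. CT21 had 224, and 51 with only those groups, and the knockout times had 1882, and 1198 with no filter. With 1 library left out, calls over all genes ran from 1320 to 4562 at CT1, 71 to 160 at CT5, 266 to 757 at CT9, 332 to 670 at CT13, 189 to 434 at CT17 and 128 to 363 at CT21, from 131 to 662 for the dependence on time, and from 1655 to 3557 and 1203 to 3327 for the knockout rhythm and times. The cause was not tested. No paired analysis was possible because the labels give no replicate numbers that groups share. Counts of Zbtb16, Mt2 and Hsd11b2 were low, which limits their precision.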
